A study of Homo sapiens with 24 samples.

Results

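The transcripts of 10 genes that decide entry into and passage through S phase were followed in K562, an established human leukaemia cell line with erythroid features. The genes are the transcription factors E2F1, E2F2, E2F3, E2F4, E2F7 and E2F8, the dimer partner TFDP1, and the pocket proteins RB1, RBL1 (p107) and RBL2 (p130). They were taken as listed symbols and matched to Ensembl identifiers, and all 10 were among the 12285 genes of the expression table. The cells were sorted by size with centrifugal elutriation to synchronize the cell cycle, grown in RPMI with 10% BCS and P/S, and sampled every 2 h from 0 h to 46 h for total RNA sequencing. Each of the 24 time points is 1 library, all are K562 under the same conditions, and no time point has a replicate. Values are FPKM, fragments scaled by transcript length and library total, a level per length that allows genes to be set side by side. In such bulk samples, fewer cells of a type and less RNA per cell cannot be told apart.

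E2F factors bind DNA, most of them as dimers with a DP protein, and switch genes of DNA replication and mitosis on or off. E2F1, E2F2 and E2F3 activate transcription until RB1 binds and masks them, and cyclin-dependent kinases free them in late G1 by phosphorylating RB1. E2F4 acts mainly as a repressor with RBL1 or RBL2, in the DREAM complex of quiescent and early G1 cells, while E2F7 and E2F8 repress without a DP partner and without pocket proteins. Transcript levels do not measure protein or phosphorylation, through which much of this control acts.

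The labelled cell line was checked against its markers first. All 12 erythroid leukaemia markers were in the table, among them GATA1 at a median of 133.4 FPKM and the fetal globin gene HBG2 at a median of 2434 FPKM. Their summed level was 4366 to 8192 FPKM at 22 time points, 3296 FPKM at 16 h and 2982 FPKM at 18 h. Of 6 lymphoid markers 2 were in the table, at 4.8 to 14.1 FPKM in sum, and of 6 fibroblast markers 1 was, COL1A2, at 1.7 to 3.94 FPKM. Of 5 epithelial markers 4 were in the table at 216.2 to 262.8 FPKM in sum, with EPCAM between 56.1 and 114.2 FPKM. The libraries at 16 h and 18 h stood apart from the rest. Their FPKM values summed to 566247 and 591309 over all genes, against 456791 to 520382 at the other time points, and the study itself treats both as irregular. Calls of a 24 h pattern and of a difference between days are therefore given with and without these libraries. The library at 32 h, which the study marks as irregular to a smaller degree, holds the second-day low of E2F1 and E2F2 and the second-day high of RBL1.

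Promoters of 4 members carried a word of the E2F consensus at least 2 times just upstream of the start site, and these are shown because E2F genes and RBL1 are themselves textbook E2F targets. Upstream windows of 250 bases were taken from RefSeq (GRCh38.p14) and searched on both strands for TTTCCCGC, TTTCCCGG, TTTCGCGC, TTTCGCGG, TTTGCCGC, TTTGCCGG, TTTGGCGC and TTTGGCGG, words chosen after the sequences were in view. The last 120 bases before the start site are printed 5′ to 3′ in the direction of the gene, with matches in capitals. The full windows with 50 bases after the start are chr20:33686336-33686635 for E2F1, chr1:23531184-23531483 for E2F2 and chr20:37095948-37096247 for RBL1, all on the minus strand, and chr6:20401629-20401928 for E2F3 on the plus strand.
E2F1: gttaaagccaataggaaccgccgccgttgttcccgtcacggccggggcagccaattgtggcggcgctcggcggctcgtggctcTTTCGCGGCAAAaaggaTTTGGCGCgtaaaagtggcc
E2F2: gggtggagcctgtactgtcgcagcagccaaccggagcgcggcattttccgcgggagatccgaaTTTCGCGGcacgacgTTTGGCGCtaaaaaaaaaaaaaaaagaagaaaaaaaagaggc
E2F3: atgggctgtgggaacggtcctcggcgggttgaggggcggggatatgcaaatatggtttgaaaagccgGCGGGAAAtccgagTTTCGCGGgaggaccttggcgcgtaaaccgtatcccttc
RBL1: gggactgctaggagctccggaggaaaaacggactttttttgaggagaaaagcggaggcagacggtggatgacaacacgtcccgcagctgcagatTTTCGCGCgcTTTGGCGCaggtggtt
E2F1 held 3 matches. The first, TTTCGCGG, lay 37 to 30 bases upstream and overlapped the second, GCGGCAAA on the other strand, at 33 to 26 bases, and the third, TTTGGCGC, lay at 20 to 13 bases. RBL1 held TTTCGCGC at 26 to 19 bases and TTTGGCGC at 16 to 9 bases, with 2 bases between them. E2F2 held TTTCGCGG at 57 to 50 bases and TTTGGCGC at 42 to 35 bases. E2F3 held GCGGGAAA at 53 to 46 bases and TTTCGCGG at 39 to 32 bases. Of all 35116 promoter windows in the table, 5.23% held at least 1 such match and 0.288% held at least 2.

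The windows of other members differed. TFDP1 held 1 match at 120 to 113 bases upstream, and E2F4, E2F7 and the windows of RBL2 held none of these words. E2F7 held 4 CCAAT boxes, the element bound by NF-Y, E2F1 held 3, E2F3 held 4, and 1 window of RBL2 held 1. Of all windows 32.0% held at least 1 and 9.53% at least 2. The only member window with the CHR word TTTGAA, an element bound by the MuvB core of DREAM, was that of E2F3 at 65 to 60 bases, against 13.3% of all windows. The start sites of both RBL2 windows lie 494 and 1642 bases downstream of the gene's annotated 5′ end (GENCODE 29), and that of a second E2F3 window, which held no E2F word, lies 1708 bases downstream. The RB1 window lies 172724 bases inside the gene and was not used, and E2F8 had no window. A match is a string of letters and not a measured binding site.

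Levels spanned about an order of magnitude, with TFDP1 and E2F4 far above the rest. TFDP1, a DP subunit that pairs with E2F1, E2F2, E2F3 and E2F4, had a median of 84.7 FPKM over the 24 time points (lowest 73.1, highest 98.0). E2F4 followed at 67.5 FPKM and was below TFDP1 at 23 of 24 time points. E2F3 came next at 32.6 FPKM and was the most abundant activator, below E2F4 and above RBL2 at every time point.

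The other 7 members lay between medians of 18.5 and 8.91 FPKM and overlapped. RBL2 was the most abundant pocket protein gene at 18.5 FPKM, followed by RB1 at 14.3 FPKM and RBL1 at 9.24 FPKM. E2F1 had a median of 14.6 FPKM, E2F8 14.1 FPKM, E2F2 12.4 FPKM and E2F7 8.91 FPKM. Neighbours in this order crossed: RBL2 was above E2F1 at 18 of 24 time points, E2F1 above RB1 at 17, RB1 above E2F8 at 16, E2F8 above E2F2 at 20, E2F2 above RBL1 at 16 and RBL1 above E2F7 at 13. The levels of RBL1 and E2F7 were thus not separated beyond their spread over time, and without 16 h and 18 h their order turned (medians of 9.08 and 9.15 FPKM).

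**Figure D1:**
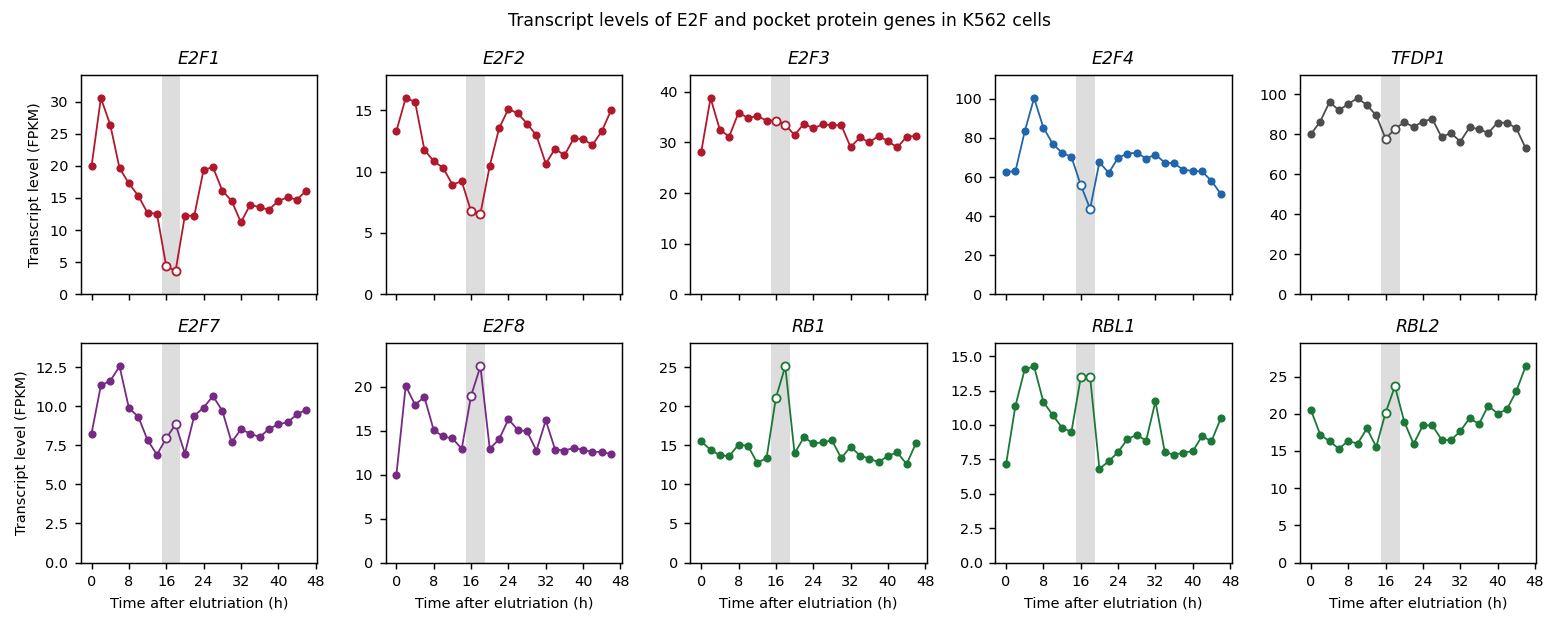
Transcript level (FPKM, linear axis from 0) of each member against hours after elutriation, 1 library per point. Open points on grey are 16 h and 18 h. E2F1 ran from 30.5 FPKM at 2 h to 12.2 FPKM at 22 h with 3.64 FPKM at 18 h between, and RB1 lay between 12.6 and 16.0 FPKM except at 16 h and 18 h.

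Between 0 h and 2 h several members differed by more than most genes did. At 2 h E2F1 was at 30.5 FPKM, its highest value, against 19.9 FPKM at 0 h. E2F8 was at 20.1 FPKM against 9.94 FPKM, a ratio of 2.02. RBL1 was at 11.4 FPKM against 7.14 FPKM, a ratio of 1.59. On the log2(FPKM + 1) scale the E2F8 difference of 0.95 was larger than that of 99.4% of 12253 genes that averaged 1 FPKM or more, the RBL1 difference of 0.60 than that of 97.5%, and the E2F1 difference of 0.59 than that of 97.3%. The median over all genes was -0.02. E2F1 had a step of similar size at 22 h to 24 h, 0.63, larger than that of 98.0% of genes.

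E2F3 and E2F7 were also higher at 2 h than at 0 h. E2F3 was at 38.7 FPKM against 28.1 FPKM and E2F7 at 11.3 FPKM against 8.25 FPKM. For E2F3, E2F7, E2F8, RBL1 and RBL2 this first step was the largest of the 20 steps between consecutive time points that leave out 16 h and 18 h. For RBL2 its direction was downward, from 20.5 to 17.2 FPKM. The next largest step was close in size for E2F7 (0.415 against 0.382) and for RBL2 (-0.240 against 0.234). The share of all genes with their largest step at this point was not taken, so nothing particular to the members is drawn from it. E2F4 stood at 62.7 and 62.9 FPKM at 0 h and 2 h and was at 100.4 FPKM at 6 h, so its high point came later than that of the activators. With 1 library at 0 h, these steps have no replicate check.

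A pattern with a period of 24 h was tested for every gene with the JTK statistic, the largest Kendall rank score against cosine curves of 12 phases, with its exact null distribution and Benjamini-Hochberg adjustment over all 12285 genes. The period is the cell cycle length of 12 time points that the study assumes, and it was not measured here. First day means 0 h to 22 h and second day 24 h to 46 h. The test takes time points as exchangeable, and a slow drift lowers its p as well. Of the 10 members 5 passed an adjusted p of 0.05, E2F1, E2F2, E2F4, E2F7 and RBL2, against 9.99% of all genes. Without 16 h and 18 h E2F1, E2F2 and E2F4 passed, against 11.7% of all genes. The time points come from a single culture, so the p-values measure order in time within it and not the spread between cultures.

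Among the activators, E2F1 and E2F2 had their highest value early in each day. E2F1, which also drives apoptosis genes, ran from 30.5 FPKM at 2 h through 15.3 FPKM at 10 h to 12.2 FPKM at 22 h, and was at 19.4 and 19.8 FPKM at 24 h and 26 h and at 11.2 FPKM at 32 h, or 13.2 FPKM at 38 h as the lowest without that library. It thus had a high point in each day, with the lower one in the second. The adjusted p of the exact JTK test was 0.0169 (0.0231 without 16 h and 18 h) with a peak at 2 h. A cosine fitted with limma to log2(FPKM + 1) had an amplitude of 0.54 ± 0.13 (SE, n = 24), which is a peak 2.11 times the trough. Without the irregular libraries it was 0.33 ± 0.08, a peak 1.58 times the trough.

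E2F2, an activator prominent in erythroid and lymphoid cells, was also highest at 2 h and had less range. It was at 16.0 FPKM at 2 h and 15.7 FPKM at 4 h, at 8.94 FPKM at 12 h, at 13.5 FPKM at 22 h, at 15.1 FPKM at 24 h, at 10.7 FPKM at 32 h and at 15.0 FPKM at 46 h. Leaving out 16 h and 18 h, its first-day low was at 12 h, while E2F1 stayed between 12.2 and 12.7 FPKM from 12 h to 22 h. The end of the second day was level with 24 h. The exact JTK test gave an adjusted p of 0.0111 (0.0105 without 16 h and 18 h), and the amplitude was 0.30 ± 0.07 (SE), or 0.23 ± 0.04 without these libraries. Its fitted peak lay at 2.06 h and, without them, at 0.687 h.

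E2F3 did not pass (adjusted p = 1, exact JTK). Apart from 28.1 FPKM at 0 h and 38.7 FPKM at 2 h it stayed between 29 and 35.9 FPKM, and its amplitude was 0.03 ± 0.04 (SE). Its 2 promoters, which give proteins with different N termini, are counted together in a value per gene.

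E2F4 had the smallest adjusted p of the members over all time points, 0.00735 (exact JTK), with a peak at 8 h. Without 16 h and 18 h it was 0.0139, and that of E2F2 was smaller. It was at 83.3 FPKM at 4 h, at 100.4 FPKM at 6 h, at 85.3 FPKM at 8 h and at 62.1 FPKM at 22 h. In the second day it lay between 67.0 and 72.4 FPKM from 24 h to 36 h and was at 51.4 FPKM at 46 h. The second day thus held a plateau where the first held a peak. The amplitude was 0.25 ± 0.05 (SE) and the fitted peak lay at 6.86 h ± 0.77 (SE).

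Of the atypical repressors, E2F7 was at 12.6 FPKM at 6 h and 6.9 FPKM at 14 h, at 10.7 FPKM at 26 h and 7.69 FPKM at 30 h, and at 9.77 FPKM at 46 h. It passed with an adjusted p of 0.0367 (exact JTK) and missed the threshold at 0.0512 without 16 h and 18 h, with amplitudes of 0.17 ± 0.05 and 0.18 ± 0.05 (SE). E2F8 was between 17.9 and 20.1 FPKM from 2 h to 6 h and reached 16.3 FPKM at 24 h, and was at 12.7 FPKM at 30 h, and from 34 h on it lay between 12.3 and 13 FPKM. Its adjusted p was 1 (exact JTK), and 0.0961 without 16 h and 18 h, where its amplitude was 0.18 ± 0.06 (SE) in place of 0.07 ± 0.07.

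TFDP1 varied little. Its values ran from 98.0 FPKM at 10 h to 73.1 FPKM at 46 h, its highest value was 1.34 times its lowest, and its amplitude was 0.05 ± 0.04 (SE, adjusted p of the exact JTK test = 1).

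The pocket protein genes had courses unlike each other. RBL2, which pairs with E2F4 in non-dividing cells, ran opposite to E2F4: it was lowest at 15.3 FPKM at 6 h, where E2F4 was highest, and highest at 26.4 FPKM at 46 h, where E2F4 was lowest apart from 18 h. With 16 h and 18 h left out, over 22 time points, Spearman's rank coefficient between them was -0.68, as a description of points that share a culture and libraries. This was not particular to E2F4. The coefficient of RBL2 was -0.64 with E2F8, -0.59 with E2F3, -0.56 with TFDP1 and -0.48 with RBL1. It was negative with every member but E2F2 (0.19). RBL2 passed with an adjusted p of 0.0322 (exact JTK, peak at 18 h) and missed the threshold at 0.0842 without 16 h and 18 h, and its amplitude was 0.18 ± 0.05 (SE).

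RBL1, itself an E2F target in proliferating cells, was at 14.3 FPKM at 6 h and 6.81 FPKM at 20 h, and in the second day it lay between 7.83 and 9.29 FPKM before 42 h except for 11.7 FPKM in the library at 32 h. Its range in the first day was 2.09-fold and its adjusted p was 0.747 (exact JTK), or 0.139 without 16 h and 18 h. RB1, the retinoblastoma protein gene, stayed between 12.6 and 16.0 FPKM at the 22 other time points, a range of 1.27-fold and the narrowest of the members. It had an adjusted p of 0.267 (exact JTK), or 0.0741 without the irregular libraries, where its amplitude was 0.08 ± 0.03 (SE).

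**Figure D2:**
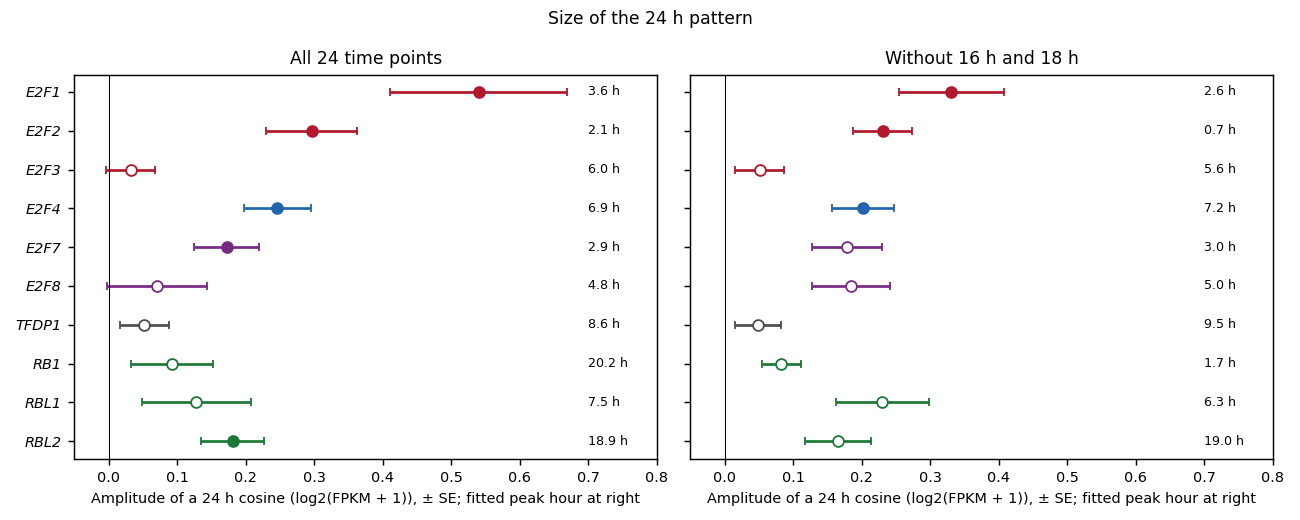
Amplitude of a 24 h cosine fitted to log2(FPKM + 1) with limma, with SE bars and the fitted peak hour in print, for all 24 time points and without 16 h and 18 h. Filled points passed the exact JTK test at an adjusted p of 0.05, which 5 members did with all time points and 3 without 16 h and 18 h. E2F1 had the largest amplitude in both panels (0.54 and 0.33).

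The hour of the highest value was taken in each day. Leaving out 16 h and 18 h, E2F1, E2F2, E2F3 and E2F8 were highest at 2 h in the first day, E2F4, E2F7 and RBL1 at 6 h, TFDP1 at 10 h, RB1 at 22 h and RBL2 at 0 h. In the second day E2F2 and E2F8 were highest at 24 h, E2F1, E2F3, E2F7 and TFDP1 at 26 h, E2F4 and RB1 at 28 h, RBL1 at 32 h and RBL2 at 46 h. The order of these hours differed between days, but each rests on 1 library and some on small differences. E2F2 was at 15.1 FPKM at 24 h and 15.0 FPKM at 46 h, and E2F3 at 33.6 FPKM at 26 h and 33.4 FPKM at 30 h. Without the library at 32 h, RBL1 was highest at 46 h (10.5 FPKM). A change of order was not tested. The range within a day was wider in the first day for 9 of the 10 members and for 62.0% of 12253 genes, with TFDP1 (1.23-fold against 1.2-fold) and RB1 (1.26-fold against 1.24-fold) close to equal. For E2F1 it was 2.5-fold against 1.77-fold, and for RBL2 alone it was narrower in the first day, 1.34-fold against 1.6-fold.

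At matched hours of both days, no member passed the test. The 12 time points from 24 h to 46 h were compared with the 12 from 0 h to 22 h. The comparison used limma on log2(FPKM + 1), with the matched hour as a block and adjustment over 12253 genes. The pairs come from 1 culture and are not independent, so SEs and p-values measure the spread between hours within it and not between cultures. Of the 10 members 0 were called lower, against 5.16% of all genes, and 0 higher, against 9.57%. In limma 1 member had an unadjusted p below 0.05, and in an exact two-sided sign-flip test of the pairs 2 did. Without the pairs that hold 16 h or 18 h, 0 members were called again, against 6.8% of genes lower and 12.6% higher, and 4 members had an unadjusted p below 0.05 in limma and 3 in the exact sign-flip test.

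With all pairs E2F2 had the smallest adjusted p of the members, 0.0723 (limma), with a difference of 0.25 ± 0.09 (SE) and higher values in the second day at 9 of 12 hours. Without the irregular pairs its difference was 0.14 ± 0.06 (SE, adjusted p = 0.138, limma). RBL2 was higher by 0.14 ± 0.07 (SE), also at 9 of 12 hours, and by 0.19 ± 0.07 without the irregular pairs (adjusted p = 0.0905, limma). TFDP1 was at -0.11 ± 0.06 (SE) and at -0.15 ± 0.05 without these pairs (adjusted p = 0.0601, limma), then the smallest of the members. E2F4 was at -0.07 ± 0.08 (SE) and at -0.16 ± 0.07 without these pairs (adjusted p = 0.115, limma). Its second day was higher at 2 of the 10 hours then left. RBL1 was at -0.22 ± 0.10 (SE), with the second day higher at 4 of 12 hours, and at -0.14 ± 0.10 without these pairs. E2F8 was at -0.19 ± 0.10 (SE), with the second day higher at 3 of 12 hours, and at -0.09 ± 0.09 without them. RB1 was at -0.13 ± 0.08 (SE) with them and at -0.01 ± 0.04 without. The sign of E2F1 rested on the irregular pairs: its difference was 0.14 ± 0.20 with them and -0.17 ± 0.11 (SE) without.

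**Figure D3:**
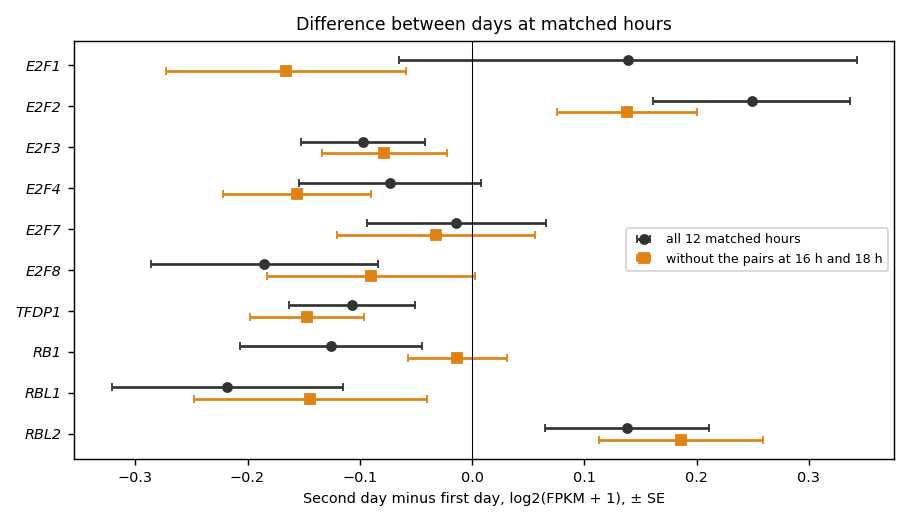
Second day minus first day at matched hours on the log2(FPKM + 1) scale, as the limma estimate ± SE, for all 12 matched hours (circles) and without the pairs at 16 h and 18 h (squares). The SEs are over hours of 1 culture. No member passed the adjusted threshold. E2F2 (0.25) and RBL2 (0.14) lay to the right of 0 in both fits, and E2F1 lay on either side.

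At 16 h and 18 h some members differed from the hours around them in opposite directions. E2F1 was at 12.6 FPKM at 14 h, 4.36 FPKM at 16 h, 3.64 FPKM at 18 h and 12.3 FPKM at 20 h, so both values were below every other value of the gene. RB1 was at 13.4, 21.1, 25.1 and 14.0 FPKM at the same hours, so both of its values were above every other. The distance from a line drawn through 14 h and 20 h, averaged over 16 h and 18 h on the log2(FPKM + 1) scale, was -1.43 for E2F1, or 2.69-fold lower, and 0.71 for RB1, or 1.64-fold higher. With 1 library per time point these distances have no test. The median over all genes was 0.14, and 0.02 or -0.06 when each library was centred on its median or scaled by its upper quartile, and values are to be read relative to it.

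E2F1 alone of the 10 members was past 2-fold below the line, against 7.11% of all genes, and 0 members were past 2-fold above it, against 8.95%. As a reference, the same distance was taken at 16 other pairs of consecutive time points that leave out 16 h and 18 h. All members but E2F3 lay outside the range of those pairs, 9 of 10, against 71.6% of all genes. For E2F1 that range was -0.22 to 0.50.

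The other pocket protein genes lay on the side of RB1. RBL1 was at 9.49, 13.5, 13.5 and 6.81 FPKM at 14 h, 16 h, 18 h and 20 h, a distance of 0.68. RBL2 was at 15.6, 20.2, 23.7 and 18.9 FPKM, a distance of 0.33. E2F8 was at 12.9, 18.95, 22.3 and 12.9 FPKM, a distance of 0.63, and its value at 18 h was its highest of all. E2F2 (-0.50) and E2F4 (-0.47) lay on the side of E2F1. E2F2 was at 6.76 and 6.57 FPKM, its lowest values, and E2F4 at 55.9 and 43.8 FPKM. TFDP1 was at -0.13, E2F7 at 0.24 and E2F3 at 0.05. The signs of E2F3 turned to -0.07 with median centring and -0.18 with upper-quartile scaling, while those of the other members were kept under both.

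The members at both ends of the distances were also at the ends of transcript GC content (GENCODE 29). E2F1 (62.5% GC), E2F4 (58.1%) and E2F2 (57.5%) were the most GC-rich and had the most negative distances, and RB1 (37.3%) and RBL1 (40.0%) were the least and had the most positive. Members of middle GC content differed: E2F3 (45.2%) was at 0.05, E2F8 (45.9%) at 0.63 and TFDP1 (46.6%) at -0.13. Over 12148 genes Spearman's rank coefficient between the distance and GC content was -0.56, as a description across genes of the same libraries. With a smooth GC trend removed over all genes, a step chosen after seeing the data, E2F1 was at -0.86, TFDP1 at -0.38, E2F2 at -0.20, E2F4 at -0.14, RB1 at 0.14, RBL1 at 0.17 and E2F8 at 0.35, while RBL2 (-0.06) and E2F7 (-0.15) changed sign, as E2F3 did (-0.26). The summed erythroid markers were lower at the same hours, as given above. The globin genes HBG2 and HBE1 had the highest medians among them (2434 and 1901 FPKM). Single markers differed. The distance was -1.55 for KLF1, -1.18 for GATA1, -0.73 for EPOR, -0.32 for LMO2, -0.08 for TAL1 and 0.21 for TFRC. The part of GC content, of these markers or of the libraries in the distances was not tested.

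**Figure D4:**
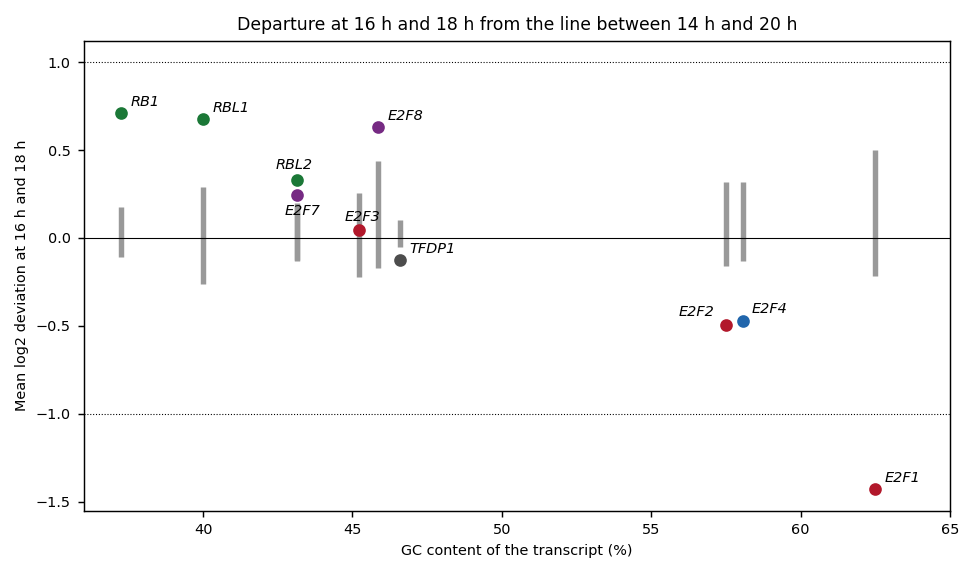
Mean log2 distance at 16 h and 18 h from the line between 14 h and 20 h (points) against transcript GC content, with the range of the same measure at 16 other pairs of time points (grey bars) and dotted lines at 2-fold. The bars of E2F7 and RBL2 coincide at 43.1% and 43.2% GC. E2F1, with 62.5% GC, lies at -1.43, and RB1, with 37.3% GC, at 0.71.

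Around the members, the targets of E2F that act in G1/S and S phase held the largest share of genes with a 24 h pattern among 5 lists. Of 44 such genes other than the members, 10 passed the exact JTK test (22.7%, against 9.99% of all genes) and 17 did without 16 h and 18 h (against 11.7%). The shares of all genes for the lists that follow are the same. The peak of 9 of the 10 lay between 0 h and 6 h, as did those of 44.9% of all genes called. MCM5, a subunit of the replicative helicase, was at 120.1 FPKM at 4 h and 66.2 FPKM at 38 h. It was lower in the irregular libraries, at 53.0 FPKM at 16 h and 53.5 FPKM at 18 h. With all time points its amplitude was 0.37 ± 0.05 (SE) and its adjusted p 6.33e-05 (exact JTK). Without 16 h and 18 h the adjusted p was 0.000521 (exact JTK). MCM2, another subunit, peaked at 2 h (adjusted p = 0.00089, or 0.00185 without 16 h and 18 h, exact JTK). GINS2, of the GINS complex that joins the helicase, peaked at 4 h (adjusted p = 0.000746, or 0.00454 without them, exact JTK).

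Of 39 G2/M targets of DREAM and FOXM1 analysed, 3 passed and 1 did without 16 h and 18 h, all 3 with peaks between 8 h and 18 h. They were TOP2A, which untangles DNA before mitosis, the spindle checkpoint kinase TTK and the mitotic kinase CDK1. TOP2A was lowest at 47.8 FPKM at 2 h, where E2F1 was highest, and at 132.0 FPKM at 36 h, with 186.3 FPKM at 16 h and 223.5 FPKM at 18 h above every other hour. None of these 3 was called without 16 h and 18 h (adjusted p = 0.0842 for TOP2A, 0.139 for TTK and 0.156 for CDK1, exact JTK). At matched hours 5 of the 39 were called higher in the second day (limma, against 9.57% of all genes) and 0 lower, and without the irregular pairs 15 higher (against 12.6%) and 0 lower.

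Upstream of the pocket proteins, 2 of 19 cyclins, kinases and inhibitors passed, and 3 did without 16 h and 18 h. CDKN2A and CDKN2B were not analysed here. CCNE2 is a cyclin that with CDK2 phosphorylates RB1 and is itself an E2F target, and it is counted in both of these lists. It was at 38.9 FPKM at 2 h and 13.5 FPKM at 14 h, with its peak in the same hour as E2F1. Its adjusted p was 0.00572, or 0.00804 without 16 h and 18 h (exact JTK). CDK6, a G1 kinase of RB1, peaked at 16 h (adjusted p = 0.0287, exact JTK) and did not pass without the irregular libraries (0.0741), in which it stood at 91.6 and 108.5 FPKM against at most 56.7 FPKM elsewhere. CCND1, its cyclin partner, missed the threshold (adjusted p = 0.0594, exact JTK) and passed without them (0.0311).

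Of 13 other E2F, DP and DREAM subunits 2 passed, with and without 16 h and 18 h. L3MBTL2, a Polycomb protein found with E2F6, was highest at 19.2 FPKM at 6 h, the hour at which E2F4 was highest. Its adjusted p was 0.015, or 0.0356 without 16 h and 18 h (exact JTK). MYBL2, which joins MuvB when E2F4 and pocket proteins leave it, was at 75.7 FPKM at 0 h and 114.7 FPKM at 6 h. Its adjusted p was 0.0367, or 0.00906 without 16 h and 18 h (exact JTK). E2F6, a repressor without a pocket protein site, did not pass (0.117, exact JTK).

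Of 13 chromatin partners that pocket proteins recruit, 2 passed with all time points and 2 without 16 h and 18 h. SUV39H1, a histone H3 lysine methyltransferase that RB1 can recruit, was at 28.1 FPKM at 6 h and 13.1 FPKM at 46 h. It was lower in the irregular libraries, at 10.4 FPKM at 16 h and 10.5 FPKM at 18 h. Its adjusted p was 0.00638, or 0.0139 without them (exact JTK). RBBP7, a histone chaperone of deacetylase complexes, peaked at 6 h with an amplitude of 0.08 ± 0.03 (SE, adjusted p = 0.0287, exact JTK), and missed the threshold without 16 h and 18 h (0.0576). SIN3B, a corepressor scaffold, did not pass (0.0823, exact JTK). These lists were chosen with earlier results in view, and nothing particular to them is drawn from their shares.

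The closest profiles to each member in the whole table were named by Spearman's rank coefficient over 22 time points, again leaving out 16 h and 18 h, among 12253 genes of the same libraries. For E2F1 they were KRBA1 (0.90) and TENT5A (0.87), and for E2F2 HELLS (0.90), a chromatin remodeller, and ZNF714 (0.89). For E2F4 they were PPAN (0.94), a ribosome assembly factor, and SETD6 (0.93). RBL1 was closest to MAN2A2 (0.91) and INTS6L (0.91), RBL2 to IL23A (0.91) and PLPPR3 (0.91), and E2F8 to PLAGL2 (0.91) and TMEM127 (0.87). The coefficient was 0.85 for E2F7 with CPEB4 and 0.84 with USP37, 0.90 for TFDP1 with TOLLIP and 0.87 with LRRC14, 0.82 for E2F3 with MC1R and 0.80 with TARBP2, and 0.73 for RB1 with TMLHE and 0.69 with NFYB. Some of these genes were low, with medians of 1.01 FPKM for TENT5A, 2.49 FPKM for MC1R and 3.22 FPKM for IL23A. The precision of such levels cannot be given. Within the members the closest pair was E2F1 and E2F7 (0.74), with 23 genes of the table closer to E2F1 and 17 closer to E2F7.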

How the data were processed

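RNA sequencing of 24 libraries of K562, 1 per time point, was analysed. Per the labels, reads were processed with STAR, Cufflinks and Cuffnorm on GRCh37 (the submitters' processing notes). Tool versions and the annotation were not given in the sources used here. The authors deposited FPKM per gene, already limited to genes with at least 1 FPKM at 12 or more time points, and a second table of cleaned values, a score per gene whose columns held the same sorted values, used only as an alternative. Columns were matched to samples by the hour in their labels, and 0 columns were left unmatched. The files hold no counts, so the depth is unknown and no counting interval is given. The members and gene lists were chosen with earlier results of these data known.

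The JTK test and BH adjustment ran in Python 3.11.15 (numpy 2.4.6, scipy 1.17.1), and cosine fits and day comparisons in limma 3.58.1 (R 4.3.3) on log2(FPKM + 1), limited to genes averaging 1 FPKM or more. Fold changes on this scale understate changes of low genes. A smooth GC trend used lowess with a fraction of 0.3. Transcript GC came from the GENCODE 29 annotation and was known for 99.2% of genes. All 10 members were named, with the 3 genes of smallest JTK p in each list and the 2 most similar genes of each member. The scripts were tested on simulated data. Strand was not stated, so overlapping antisense reads cannot be told apart. Alternatives were other periods, time points, corrections, filters, pseudocounts, thresholds and scalings.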

Additional observations from a re-analysis of the deposited data

How the results depend on the processing

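The number of members with a 24 h pattern was 5, and 2 with a period of 20 h, 0 with 28 h, 3 without 16 h and 18 h, 3 in the cleaned table and 3 with the GC trend removed, the last chosen after seeing the data. It was 4 or 5 under the other settings. With 28 h the exact JTK test gave 264 of 12285 genes and 4 members at an unadjusted p below 0.05. E2F2 was lost only with 28 h, and E2F1 and E2F4 with 20 h and 28 h. RBL2 was lost in 7 settings and E2F7 in 6, including harmonic regression with limma (adjusted p = 0.0557), and RB1 passed only where 16 h and 18 h were interpolated (0.0329). A mean of at least 10 FPKM removed E2F7 and RBL1 from the test. Against the first day, 0 members were called in limma in all 9 settings, with 1 to 4 at an unadjusted p below 0.05. The difference of E2F1 turned from 0.14 to -0.17 without the pairs holding 16 h or 18 h, and that of E2F7 from -0.01 to 0.026 with upper-quartile scaling and to 0.035 with the GC trend removed. The number of members past 2-fold at 16 h and 18 h was 1, 4 at a 1.5-fold threshold and 0 with the GC trend removed. Some settings hold fewer genes or time points, and the cause of these changes was not tested. Where an amplitude changed by more than its spread it did so without 16 h and 18 h (E2F1 0.33, E2F8 0.18, RBL1 0.23). With depth unknown, the precision of the lower levels, such as E2F7 and RBL1, cannot be given.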

Other observations

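The library at 32 h stood out for some members, chosen after their values were seen. RBL1 was at 11.7 FPKM at 32 h, against 8.86 FPKM at 30 h and 8.03 FPKM at 34 h. E2F8 was at 16.2 FPKM, against 12.7 and 12.8 FPKM. E2F1 was at 11.2 FPKM, against 14.5 and 14.0 FPKM. These are the directions the same genes had at 16 h and 18 h. Of the 10 members 7 had the same sign at 32 h, against the mean of its neighbours, as at 16 h and 18 h, and so had 70.4% of 12253 genes, so the members were like the table as a whole.

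E2F7 had a smaller adjusted p at a period of 20 h (0.0198, exact JTK, with 1.86% of all genes called) than at 24 h (0.0367). Its highest values of the first and the second day, 12.6 FPKM at 6 h and 10.7 FPKM at 26 h, stood 20 h apart. E2F2 was the other member called at 20 h (0.0482, exact JTK). With about 2 cycles in 1 culture, the period was not estimated.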
